A study of Mus musculus with 2 samples.

Results

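The Tmem genes are mouse genes whose symbol stands for transmembrane protein. The members described here are all names in the list of edited sites that begin with Tmem and a digit, with Tmem100 and Tmem119 left aside, which gave 64 genes with 146 sites out of 6929 genes with 17755 sites. The name groups proteins by their predicted passage through a membrane and not by descent or task, so the members include ion channels, lipid-handling proteins, lysosomal proteins, parts of the cilium and many proteins of unknown role. N6-methyladenosine (m6A) is a methyl mark on adenosines of RNA that writer enzymes place while RNA is still in the nucleus. In brain it is known for its abundance and for lying mostly near stop codons and in the last exon.

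The sites came from 1 group of 2 libraries. Each was made from nuclei of mouse cortex that had been sorted by flow cytometry on NeuN, a nuclear protein of neurons that Rbfox3 encodes. The mice had the genotype APOBEC1-YTH, a cytidine deaminase joined to the m6A-binding YTH domain, which converts cytidines beside m6A to uridine. They were 10 weeks old when tamoxifen began, received 20 mg/kg each 24 hours for 5 days, and were sampled 7 days after the last dose. The promoter or Cre line behind the transgene, the strain and the number of animals per library were not given in the labels. The authors deposited 1 value per site for both libraries together, the editing level, which is the edited share at that cytidine. No coverage and no values per library come with it. Depth is therefore unknown, no spread between libraries can be given, and each SD below is a spread across sites. Libraries without the editor were not analysed here.

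The sorted cell type was checked against its markers. Of 10 neuronal markers 6 had a site, 20 sites in all, and Rbfox3 itself had none listed. Of 8 astrocyte markers 6 had a site, with 176 sites, and all 8 oligodendrocyte markers had one, with 55 sites. Of 5 microglia markers 3 had a site, with 18 sites, and all 5 markers of endothelium and pericytes had one, with 50 sites. Over all 21900 protein-coding genes 28.3% had a site, and each of these small marker sets stood above that share. Markers of glia and blood vessels thus carried sites beside those of neurons, and their part in the Tmem values was not tested. A gene can also lack a site because little of its RNA was sequenced, which the list cannot tell apart from a lack of methylation.

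Of the 236 protein-coding Tmem genes in the RefSeq gene table, 64 had a site, 27.1% (exact 95% interval 21.6% to 33.3%). The background over all 21900 protein-coding genes was 28.3%, and the Tmem share lay near it. Solute carrier genes outside the Slc1a group, which also encode membrane proteins, stood at 109 of 368 genes (29.6%), and the ring finger genes named Rnf at 43 of 83 (51.8%). These intervals cover the count of genes and no error of measurement. The members lay on 18 chromosomes, and 66 of their 146 sites (45.2%) were on the plus strand, against 49.3% of all sites.

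The coordinates could be checked against sequence in one place. RefSeq promoter windows of GRCm38.p6, the assembly behind mm10, running from 250 bases before to 50 after a gene's start, held 255 listed sites, and the base on the site's strand was C in all 255. One Tmem site lay in such a window, in Tmem123, which encodes a mucin-like surface protein. It is shown because it is the one member site whose surroundings could be read. The site is at position 7764201 on the plus strand of chromosome 9, 36 bases after an annotated start, and was edited at 7.41%. The stretch chr9:7764188-7764214, 5′ to 3′, has the edited cytidine in capitals.
Tmem123 site: cggttgctgcgggCgctcaggggccct
The base before this C was a G, not the A that would make AC, the core of the usual m6A motif. Over the 254 window sites with a base before them, 42 had an A there (16.5%, exact 95% interval 12.2% to 21.7%). Among all cytidines of the 32815 windows, counted on both strands, the share with A before them was 18.2%. Windows of this kind hold gene starts only, so the base before the other Tmem sites was not analysed here.

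Most Tmem genes carried few sites. A single site was listed for 30 of the 64 genes (46.9%), against 49.2% of genes in the whole list, and 16 genes had 2 sites. Another 13 genes (20.3%) had 4 or more, against 20.0% in the whole list, and these 13 genes held 69 of the 146 sites (47.3%). The number of sites per gene was thus spread much like that of the list.

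**Figure D1:**
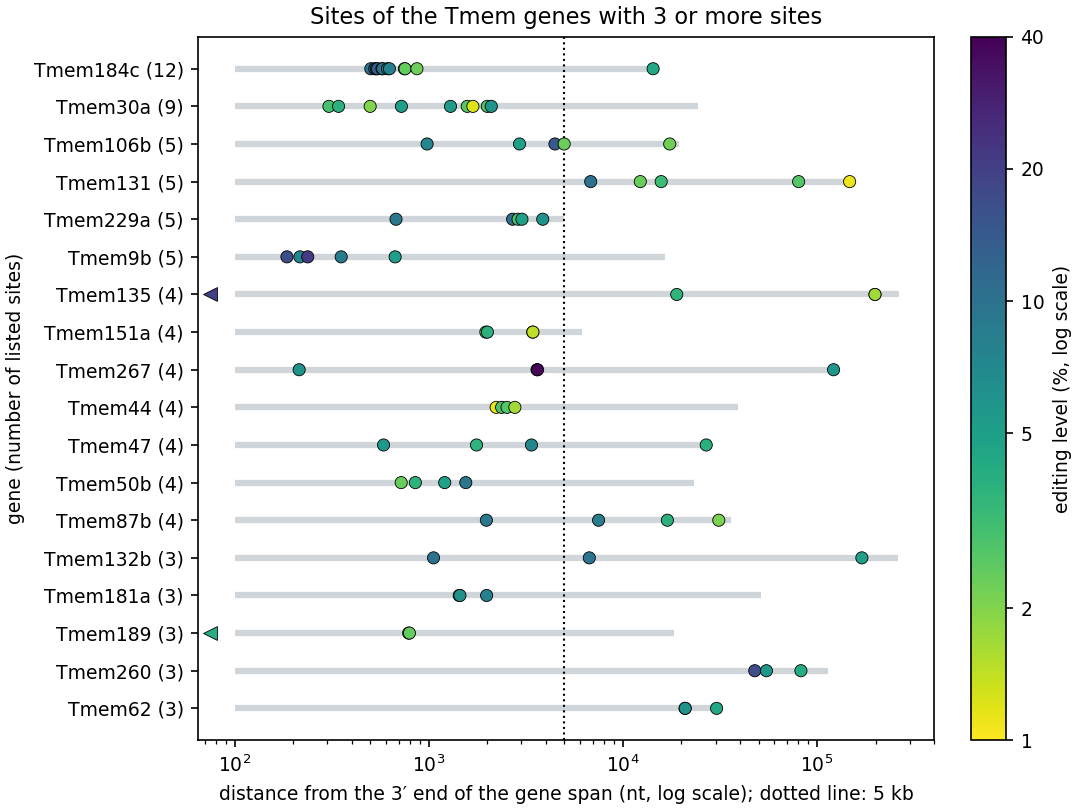
Positions of listed sites in the 18 Tmem genes with 3 or more sites. Each row is a gene with its number of sites, the horizontal axis is the distance from the 3′ end of the gene span in nt on a log scale, grey lines are spans drawn from 100 nt outward, and colour is the editing level in percent on a log scale. Triangles at the left mark a site just past the span's end in Tmem135 and Tmem189. Most sites of Tmem184c and all sites of Tmem30a and Tmem9b lie to the left of the 5 kb line, and those of Tmem131 and Tmem260 to its right.

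Tmem184c had the most sites, 12, and 89 genes in the whole list had more. Its span is 77595978 to 77610714 on the minus strand of chromosome 8. From the 3′ end inward, the first 8 sites had editing levels of 9.52%, 11.1%, 8.33%, 13.3%, 13.3%, 9.59%, 6.90% and 8.0%, and they lay within 124 nt of each other. The next 3, up to 869 nt from the end, were at 2.60%, 2.38% and 2.25%. The groups of 8 and 3 were divided at a level of 5%, so their levels could not overlap. The part of read coverage in this split was not tested. The last site, at 4.35%, lay 432 nt from the other end of the gene. Tmem184b, the other member of its letter family with a site, had 1 site at 6.45%, 256 nt from its 3′ end on chromosome 15 (position 79360940), and Tmem184a had none listed.

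Tmem30a encodes the subunit that P4-ATPases need to flip phospholipids across membranes. It had 9 sites on chromosome 9 (span 79768941 to 79793430, minus strand), all within 2099 nt of the 3′ end. From the end inward their levels were 3.03%, 3.77%, 2.00%, 5.13%, 5.41%, 2.65%, 1.22%, 2.82% and 5.88%, a mean of 3.55% ± 1.62 (SD across 9 sites). The levels followed no single trend along this stretch. The RefSeq span of Cox7a2, on the same strand, also covers all 9 sites, so that reads there may come from either gene. The other members of its family, Tmem30b and Tmem30c, had no site listed.

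Tmem9b, a lysosomal membrane protein, had the highest mean among the genes with 5 or more sites. Its 5 sites on chromosome 7 (span 109735836 to 109752263, minus strand) lay 186, 217, 238, 354 and 671 nt from the 3′ end. In that order they were edited at 16.7%, 7.41%, 21.2%, 8.70% and 5.13%, a mean of 11.8% ± 6.81. Sites 21 nt apart thus differed by 13.8 percentage points. Its relative Tmem9 had no site listed.

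Tmem106b encodes a lysosomal protein whose human gene is known for variants that modify the risk of frontotemporal dementia. Its 5 sites on chromosome 6 were edited at 7.41%, 5.0%, 14.3%, 2.30% and 2.27%, going from 980 to 17415 nt from the 3′ end. The highest of these, at position 13084803, lay 515 nt from one edited at 2.30%. Tmem229a, a gene of unknown role, held 5 sites within its short span of 4.99 kb, at 9.09%, 11.1%, 2.86%, 4.88% and 6.06% from the 3′ end inward. Tmem131, known for a part in collagen secretion, had its 5 sites far from the end: 10.3% at 6823 nt, 2.33% at 12288 nt, 3.23% at 15745 nt, 2.67% at 80345 nt and 1.11% at 147098 nt. The lowest of these was 327 nt from the gene's start.

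**Figure D2:**
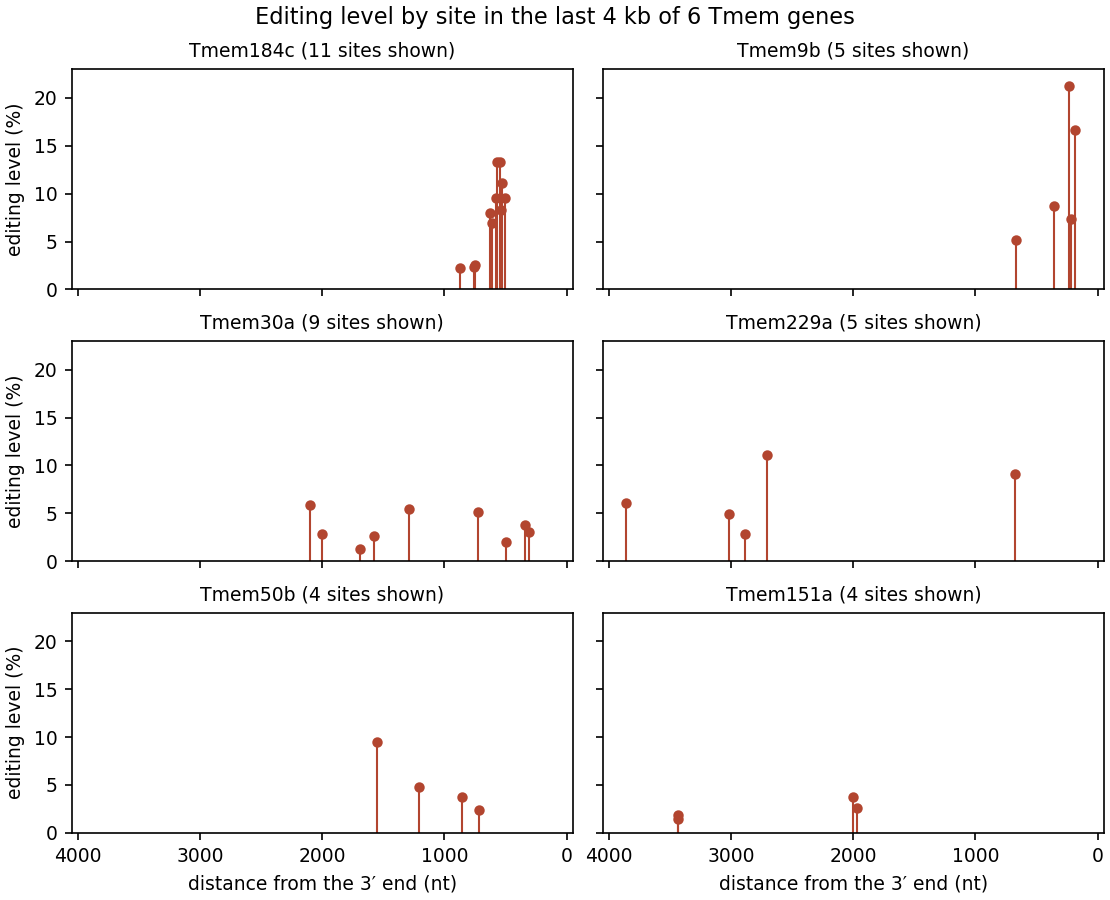
Editing level in percent by site against the distance from the 3′ end in nt, for the last 4 kb of 6 Tmem genes, with 1 line and point per listed site. Tmem184c shows a dense group between 503 and 627 nt, Tmem9b a scatter up to 21.2%, and Tmem30a and Tmem151a levels no higher than 5.88%.

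The remaining genes with 4 sites fell into those with terminal and those with scattered sites. Tmem44 had levels of 1.11%, 2.86%, 2.7% and 1.67% between 2224 and 2776 nt from its end. Tmem50b had 2.35%, 3.70%, 4.76% and 9.52% between 721 and 1551 nt, each higher than the one nearer the end. The part of read coverage in this order was not tested. Tmem151a, whose human gene is known from paroxysmal movement disorders, had 2.56%, 3.77%, 1.83% and 1.44% between 1968 and 3438 nt, in pairs 36 and 6 nt apart. All 12 sites of these 3 genes were in the last 5 kb.

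Tmem87b, a Golgi protein, had 9.09% at 1980 nt, 8.57% at 7492 nt, 3.77% at 16945 nt and 2.08% at 31168 nt from the end. Its level was thus lower at each step away from the end, and the part of read coverage in this was not tested. Tmem50b ran the opposite way, and the other Tmem genes with 4 or more sites showed no steady rise or fall. Tmem47, a junction protein of the claudin superfamily, had 5.56%, 3.70% and 7.14% in the last 5 kb and 3.85% at 374 nt from its start. Tmem135, linked to mitochondrial and peroxisomal dynamics, had a site at 20.0% lying 177 nt past the end of its span, and 3.64%, 1.65% and 1.69% deep in the gene. The pair at 1.65% and 1.69% was 2 nt apart.

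Tmem267, a gene of unknown role, held the highest Tmem level. Position 119606824 on the plus strand of chromosome 13 was edited at 38.7%, a level reached by 30 sites of the whole list (0.169%). The neighbouring site 26 nt away was at 8.11%, and the gene's other sites were at 6.06% and 5.56%. The gap of 30.6 points between those neighbours was the widest among the Tmem pairs within 100 nt. Whether a genomic variant or misplaced reads contribute to it was not tested.

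The other high levels were spread over many genes. After Tmem267 and Tmem9b, a level of 20.0% was listed in Tmem135, in the vesicle protein gene Tmem230 (chromosome 2, position 132239783), in the cilium gene Tmem237 (chromosome 1, 59108205) and in Tmem248 (chromosome 5, 130243601). Tmem263 had 18.2% and 15.4% at its only sites. Levels of 16.7% were listed in Tmem19, Tmem245, Tmem260 and Tmem9b. Of these, Tmem230 and Tmem237 were single-site genes. In the whole list 155 sites reached 21.2%, 358 reached 20.0%, 577 reached 18.2% and 850 reached 16.7%. No read counts come with these levels, so a high level may rest on few reads, and this was not tested. Both sites of Tmem245, at 16.7% and 8.0%, lay past the RefSeq 3′ end of its span, by 8897 and 2920 nt, and their assignment to the gene rests on the deposited name.

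The median editing level was 5.56% over the 146 sites (quartiles 3.08% and 9.09%, lowest 1.03%), and 3.64% over all 17755 sites (quartiles 2.01% and 6.90%). Levels of 10% or more were listed for 27 Tmem sites, 18.5% (exact 95% interval 12.6% to 25.8%), against a background of 14.9%. Levels of 20% or more were listed for 6 Tmem sites, 4.11% (1.52% to 8.73%), against 2.02%. Both backgrounds lay inside these intervals. Rnf sites stood at 19.1% and 4.26% for these levels with a median of 4.76%, and solute carrier sites at 13.7% and 1.14% with a median of 4.08%. Averaged per gene first, the median was 6.67% over 64 Tmem genes and 5.0% over all 6929 genes. With sites of 2% or more only, the medians were 6.06% for Tmem sites and 4.88% for all sites. The order did not hold at higher minimums: with 5% or more they were 8.45% and 8.70%, and with 10% or more 13.3% for both. A minimum cuts on the level itself, so medians above it cannot show whether Tmem levels as a whole are higher. A low level can be listed only where reads are many, and the part of coverage in this difference was not tested.

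**Figure D3:**
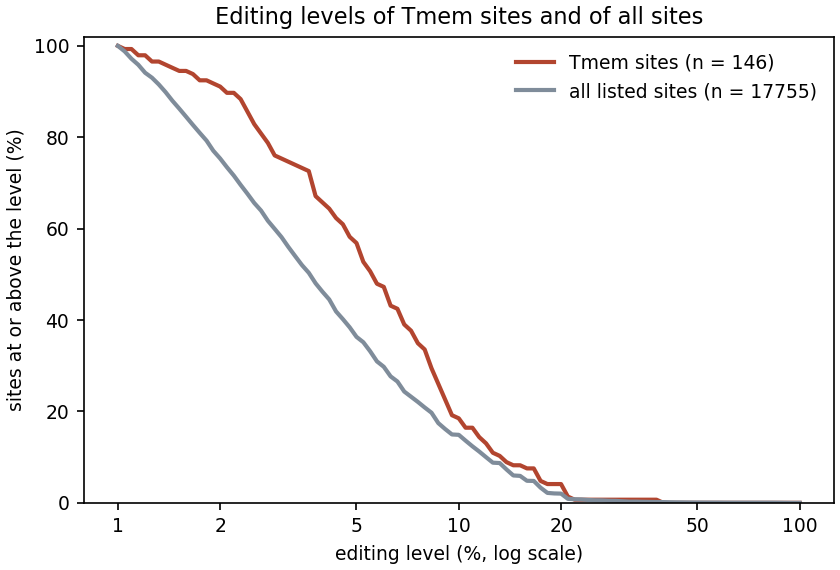
Share of sites in percent at or above each editing level (percent, log scale), for the 146 Tmem sites and all 17755 listed sites. The Tmem curve lies above that of all sites through most of the range, with medians of 5.56% and 3.64%.

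Level went with the number of sites of a gene. Tmem genes with 1 site had a median level of 6.91% (30 sites), those with 2 or 3 sites 5.56% (47 sites), and those with 4 or more 4.76% (69 sites). In the whole list the same classes stood at 6.06%, 4.26% and 2.82%. The Tmem median was higher in each class, with the widest gap among genes with 4 or more sites. The part of read coverage in these differences was not tested. Within a gene, the highest level was a median of 2.33 times the lowest over the 34 Tmem genes with 2 or more sites, and 2.66 times over the 3521 such genes of the list. The Tmem ratio ran from 1 in Tmem198b, where both sites were at 7.69%, to 12.1 in Tmem135.

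Tmem sites lay mostly near the 3′ end. Inside their own gene's span were 142 of the 146 sites (97.3%), against 98.5% of all sites with a matched gene. Of those 142, a count of 97 (68.3%, exact 95% interval 60.0% to 75.9%) were in the last 5 kb, against a background of 49.7% over all sites. The interval takes sites as independent, but 11 of the 97 lie in Tmem184c and 9 in Tmem30a, so it can be too narrow. In the last 1 kb the Tmem share was 31.7% (45 sites), against 16.1%. Tmem genes are shorter, which moves with this: sites lay in spans with a median of 23.6 kb for Tmem and 48.9 kb for the list, and the last 5 kb made up a mean of 30.0% of the span for Tmem sites and 20.6% for all sites. Within spans of 10 to under 30 kb the share in the last 5 kb was 78.3% (54 of 69 Tmem sites) against 59.8%, and within 30 to under 100 kb it was 55.2% (16 of 29) against 43.7%. In spans of 100 kb or more it was lower for Tmem, 20.0% (4 of 20 sites) against 33.1%. For comparison, the share in the last 5 kb was 63.4% for the solute carriers and 54.8% for Rnf genes. The spans of other RefSeq genes also covered 18 Tmem sites in 8 genes. One label names polyA RNA while the library kit named is for total RNA, so which RNA was sequenced is uncertain, and the part of read coverage in the share near the 3′ end was not tested. No exon annotation was at hand, so sites were not assigned to exons, introns or untranslated regions.

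**Figure D4:**
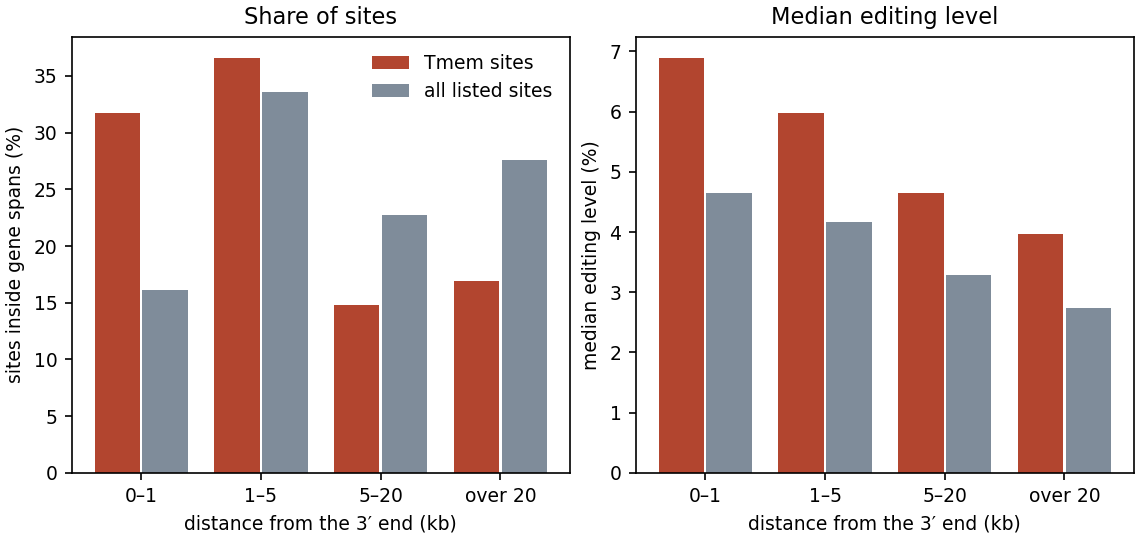
Left, share of sites inside gene spans (percent) in 4 classes of distance from the 3′ end in kb, for Tmem sites and all listed sites. Right, median editing level (percent) in the same classes. The Tmem bar is 31.7% against 16.1% in the first kb, and its median level is the higher in each class.

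Nearness to the end and level went together in the Tmem genes as in the list. The median Tmem level was 6.90% up to 1 kb from the end, 5.97% from 1 to 5 kb, 4.65% from 5 to 20 kb and 3.97% (24 sites in 17 genes) beyond. For all sites the medians were 4.65%, 4.17%, 3.28% and 2.74%. The higher Tmem median was thus present at each distance. The part of read coverage in both patterns was not tested. By gene, 34 of the 63 Tmem genes with a site inside the span had sites in the last 5 kb only, and 10 had them neither there nor in the first 1 kb. That last pattern was seen in Tmem108, Tmem168, Tmem178b, Tmem192, Tmem204, Tmem237, Tmem260, Tmem38a and Tmem63b, and in the sites of Tmem135 that lay inside its span. A gene with a span under 5 kb, such as Tmem115 or Tmem256, could only be counted as having sites in the last 5 kb only. No such counts by gene are given here for the whole list, so these have no background.

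A smaller set of sites lay at gene starts. The first 1 kb held 16 of the 142 Tmem sites (11.3%, exact 95% interval 6.58% to 17.7%), against 8.02% of all sites, and they belonged to 15 genes. Their median level was 3.71%, with a range of 1.11% to 8.0%, and that of all sites at gene starts was 3.32%. In Tmem115 and Tmem256 the gene is so short that the same site was also in the last 5 kb. Tmem165, Tmem208, Tmem59, Tmem67 and Tmem87a had all their sites at the start. The levels there were 2.99% in Tmem165, 5.13% in Tmem208, 1.25% in Tmem59, 2.41% in Tmem67, and 1.45% and 1.94% in Tmem87a. These 5 genes had nothing listed near the end. The sites of Tmem67 and Tmem87a also lie in the spans of Rbm12b2 and Ganc.

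The share of closely spaced sites lay near that of the list. Another listed site on the same strand lay within 100 nt for 33 Tmem sites (22.6%, exact 95% interval 16.1% to 30.3%), against a background of 22.9%. These formed 20 adjacent pairs in 10 genes, of which 10 pairs in 6 genes (Tmem135, Tmem151a, Tmem181a, Tmem184c, Tmem189 and Tmem87a) were within 20 nt. No count of pairs over the whole list is given here. Over the pairs within 20 nt the median difference in level was 0.455 points, with the widest, 5.0 points, in Tmem184c. Close neighbours in Tmem189 (2.47% and 2.41%), Tmem181a (6.25% and 6.67%) and Tmem135 differed by less than 0.5 points. Reads of Tmem181a can be shared with its pseudogene copies, and its close pair also lies in the span of Dynlt1a, so its levels are uncertain.

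The share of genes with a site was also read by gene length. Of Tmem genes under 10 kb, 16 of 100 had a site (16.0%), against 12.8% of all protein-coding genes of that length. From 10 to under 30 kb the shares were 38.6% (27 of 70) and 28.3%, from 30 to under 100 kb 28.0% (14 of 50) and 42.0%, and from 100 kb 43.8% (7 of 16) and 50.3%. The Tmem share was thus above the list's in the shorter classes and below it in the longer ones. The background share lay inside the exact interval of the Tmem share in each class.

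**Figure D5:**
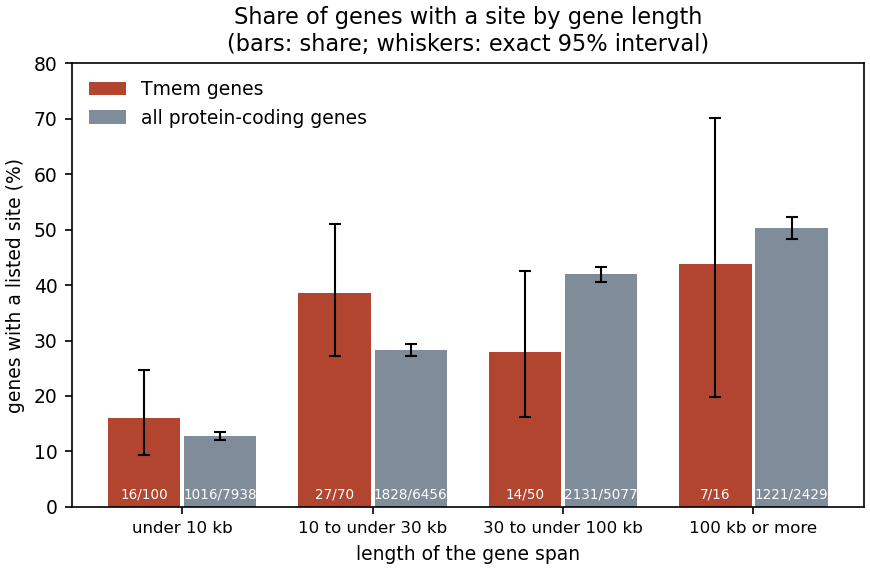
Share of genes with at least 1 listed site (percent) by length of the gene span, for Tmem genes and all protein-coding genes, with genes counted inside the bars and exact 95% intervals as whiskers. Tmem shares run from 16.0% under 10 kb to 43.8% at 100 kb or more, and their whiskers reach across the share of all genes in each class.

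By role, 8 lists of Tmem genes were read against the 27.1% of all Tmem genes with a site. Of the members with a site, 37 were on a list and 27 on none. Names on the lists that are not current RefSeq Tmem symbols were left out of the counts. Among ion channel and ion transport genes 10 of 20 had a site, 18 sites with a median level of 3.77%, 6 of them in the last 5 kb. Tmem63a and Tmem63b, mechanically gated cation channels, had 6.90% and 1.34%, and 3.37% and 5.36%, while Tmem63c had no site. The 6.90% site of Tmem63a was 107 nt from its 3′ end, the closest of all Tmem sites inside a span, whereas both sites of Tmem63b were over 5 kb away. Tmem175, a lysosomal potassium and proton channel, had 2.78% and 4.26% at 793 and 907 nt. Tmem94, an endoplasmic reticulum protein tied to magnesium transport, had the lowest Tmem level, 1.03%, beside 3.77%. Single sites were listed in Tmem38a (11.8%), an intracellular cation channel, in Tmem109 (6.67%), in Tmem178b (10.0%, 1095 nt from the start of its long span) and in Tmem165 (2.99%), a Golgi manganese transporter. Tmem163 and Tmem38b had none.

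Lysosome and endosome genes had a site in 7 of 15 cases, 17 sites with a median of 7.41%. Besides Tmem9b and Tmem106b these were Tmem175, Tmem165, Tmem192 (12.5% and 9.09%), Tmem230 and Tmem59. The sibling genes Tmem106a and Tmem106c had none. Of 12 lipid and autophagy genes 4 had a site: Tmem30a, the autophagy scramblase gene Tmem41b (5.13% and 2.53%), the plasmalogen desaturase gene Tmem189 and Tmem208. Their 15 sites had a median of 3.03% and a highest level of 5.88%. Tmem24, now named C2cd2l, and Tmem55a, now Pip4p2, were left out of this count. Each had 1 site, at 12.5% and 8.0%.

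Among endoplasmic reticulum and nuclear envelope genes 7 of 15 had a site, with 13 sites at a median of 5.13%. They included Tmem131, Tmem33 (4.08%), the ubiquitin ligase gene Tmem129 (7.14%), Tmem214 (11.8%) and the O-mannosyltransferase gene Tmem260 (16.7%, 5.56% and 4.08%). Of 11 mitochondrial genes 4 had one. Tmem70, an assembly factor of ATP synthase, was at 6.67%, Tmem223 at 4.65% and Tmem242 at 5.13%. Of 9 genes of the primary cilium 2 had a site, Tmem237 at 20.0% and Tmem67 at 2.41%.

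Genes of synapses, axons and receptor assembly had a site in 5 of 14 cases. Tmem132b, a member of an adhesion family, had 10.0%, 9.52% and 5.13%, and its 4 relatives Tmem132a, Tmem132c, Tmem132d and Tmem132e had none. Tmem108, known from dendritic spines, had 9.09%, and Tmem184b, known from axon degeneration, 6.45%. Tmem151b had 13.0% where its relative Tmem151a reached no more than 3.77%, and the Tmem151b site also lies in the span of Tcte1. Tmem35a, a chaperone of nicotinic receptors, had none.

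Of 8 Tmem genes known from glia, 3 had a site: Tmem47 with 4, the oligodendrocyte gene Tmem63a with 2 and Tmem88b with 1 at 2.51%. The glial genes Tmem125, Tmem98, Tmem176a and Tmem176b had none. The 7 sites had a median level of 3.85% and a highest level of 7.14%. Tmem10, now named Opalin, was left out of this count and had 1 site at 14.3%.

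Sites were also counted in sets of related genes. Of 25 sets of protein-coding Tmem genes that share a number and differ by a letter, 61 genes in all, 12 sets had no site, 9 had sites in 1 gene and 4 in 2 genes, namely Tmem63, Tmem87, Tmem151 and Tmem184. In these sets 17 of the 61 genes had a site (27.9%), near the 27.1% of all Tmem genes. Among sets with sites in 1 gene were Tmem30, Tmem50 and Tmem229, where Tmem30a, Tmem50b and Tmem229a had 9, 4 and 5 sites and their relatives none. In Tmem87 the positions differed as well, with both sites of Tmem87a at the start of the gene and the sites of Tmem87b along the rest of it.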

How the data were processed

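C-to-U sites were called with Bullseye, per the series description. STAR 2.7.5 and mm10 are the aligner and build named in the submitters' processing notes. The authors deposited the editing level as a fraction per site, 1 value for both libraries, and it is printed here as a percent. For its settings, control and coverage minimum the labels give nothing. The list starts at 1.00%, so lower levels are not in it.

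Gene names were matched to the RefSeq gene table of GRCm38.p6, by symbol and then by a synonym of 1 gene only (93.2% of 6929 names, and all 64 Tmem names by symbol). Distances run to the ends of the gene span on the site's strand. That strand equalled the strand in the promoter table for all 54 members found there. Positions are 1-based.

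No test was run, since 1 pooled list allows no contrast between samples, and sites of a gene are not replicates. Shares have exact Clopper-Pearson 95% intervals (scipy 1.17.1), which cover counting only. For shares of sites they take each site as independent, though sites cluster by gene, so they can be too narrow. The distance code was tested on simulated data. Named genes were those with 4 or more sites, the 15 highest levels, letter sets with sites in 2 or more genes, pairs within 20 nt, and list members. Others were named after their values were seen. Members and lists were chosen with earlier results of these data known.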

Additional observations from a re-analysis of the deposited data

How the results depend on the processing

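Depth is unknown, and no library could be left out, since the list pools both. No paired analysis was possible because the deposited column pools the 2 libraries of the only group. Of 37 recomputed values 24 stayed close to the reported one and 13 moved, where close means within 1.5 times for a count, and inside the exact 95% interval of the reported value for a share or median. By the wider rule for counts, the 50 Tmem genes left at 5% or more are close while their share of Tmem genes is not. With sites of 5% or more only, 84 Tmem sites were left, 21.2% of Tmem genes had one, the median level was 8.45% and 64.0% of the genes had a single site. With 10% or more only, 27 sites in 23 genes were left, 9.75% of Tmem genes had one, the median was 13.3% and 87.0% of the genes had a single site. At these minimums the median over all sites was 8.70% and 13.3%, so the higher Tmem median was not present there. With 2% or more only it was present, at 6.06% against 4.88%. A minimum cuts on the level itself, so such medians cannot show whether Tmem levels as a whole are higher. The share in the last 5 kb stayed above that of all sites, 75.3% against 61.0% at 5% and 72.0% against 66.0% at 10%. Counting the last 2 kb gave 45.8% of sites, and counting neighbours within 20 nt gave 13.0%. No share over all sites is given here at these settings, so neither value has a background. The highest level per gene had a median of 8.0%. At 20% or more the share of sites was 4.11%.

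Some alternatives were added after the data had been seen. Adding 24 genes whose older name was a Tmem name gave 88 genes with 188 sites, against 64 and 146. Leaving out the 18 sites that lie in another gene's span gave a median of 5.64%.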
